A study of Papio anubis and Macaca mulatta with 6 samples.

Results

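The testis interstitium holds fibroblast-like stromal cells between the seminiferous tubules, and some of them belong to the lineage that supplies Leydig cells, the steroid-producing cells of the testis. DLK1 is a membrane-bound protein related to the Notch ligands that is found on immature mesenchymal and endocrine cells, and STC1 is a secreted glycoprotein that acts locally. Around both, stromal cells lay down basement membrane proteins such as collagens, laminins and proteoglycans. The cells described here were chosen by a count rule on these genes, so they are called members below. A barcode was a member if it held at least 1000 unique molecular identifiers (UMIs, each standing for a captured RNA molecule) and a UMI of at least 2 of DCN, PDGFRA, TCF21, NR2F2, COL1A1 and COL3A1 (the stromal gate), fewer than 10 UMIs of INSL3 (a Leydig hormone), no UMI of RGS5 (a pericyte gene), and more UMIs of set B (STC1, DLK1, COL15A1, HAPLN1, LAMB1 and NRK) than of set A (IGFBP3, CLEC3B, RARRES2, MGP and C7). In all, 2081 of 44341 barcodes with at least 1000 UMIs met the rule, 654 of 21693 in the baboon and 1427 of 22648 in rhesus monkeys.

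Single testis cells of 2 olive baboons and 2 rhesus macaques were profiled with 10x Genomics 3′ chemistry in 6 libraries. Baboon libraries 1A and 1B came from one animal and baboon library 2 from the other, which was the only library made with version 3 of the chemistry, and rhesus library 1 and libraries 2A and 2B likewise came from an animal each. All 4 animals were untreated, and their testes were taken at necropsy. The authors describe all 4 animals as prepubertal. The sources used here give the animals' ages to opposite species, so no age is attached to an animal. The tissue was first digested with collagenase and washed to take away interstitial cells before trypsin released the rest, so stromal cells were partly removed before the libraries were made, and their share of a library is not their share of the tissue.

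Members made up a smaller share of the gated stroma in rhesus animal 1 than in rhesus animal 2, and an uneven share of all barcodes. The rule used 6 set B genes and 6 gate genes in the baboon but 5 of each in rhesus monkeys, so the shares are not alike between species. They were 13.9% (exact 95% interval 12.2 to 15.8) of 1422 gated barcodes in baboon animal 1 and 12.9% (11.8 to 14.01) of 3545 in baboon animal 2. In rhesus monkeys they were 9.04% (8.26 to 9.86) of 5091 gated barcodes in animal 1 and 12.9% (12.2 to 13.7) of 7481 in animal 2. The mean over animals was 13.4% ± 0.750 (SD, n = 2) in the baboon and 10.98% ± 2.75 (SD, n = 2) in rhesus monkeys. As a share of all barcodes with at least 1000 UMIs, members were 1.40% and 6.04% in the 2 baboons and 4.42% and 7.90% in the 2 rhesus monkeys. The intervals cover counting error only. By library there were 123, 75 and 456 members in baboon 1A, 1B and 2, and 460, 507 and 460 in rhesus 1, 2A and 2B, with a median of 1665, 1724, 2651, 1890.5, 1660 and 1696.5 UMIs each.

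Many members lay close to the line that defined them. B exceeded A by exactly 1 UMI in 43, 19 and 90 members of baboon 1A, 1B and 2 and in 151, 196 and 187 members of rhesus 1, 2A and 2B, while A exceeded B by 1 UMI in 68, 43, 156, 297, 493 and 524 gated barcodes of the same libraries. Sums were equal in 97, 52, 168, 248, 459 and 353 gated barcodes, which were left out of the comparison within the stroma. The counts of gated barcodes ran through this line without a gap, as the plot of B minus A shows. When the UMIs of each barcode were assigned at random, each with equal chance, to 2 parts and members were chosen on one part, B was above A in the other part in 41.7%, 44.1% and 54.3% of those chosen in baboon 1A, 1B and 2 and in 39.4%, 34.6% and 34.1% in rhesus 1, 2A and 2B. Among stroma chosen with A above B the same was seen in 6.94%, 7.69%, 5.47%, 5.04%, 11.8% and 10.46%.

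**Figure D1:**
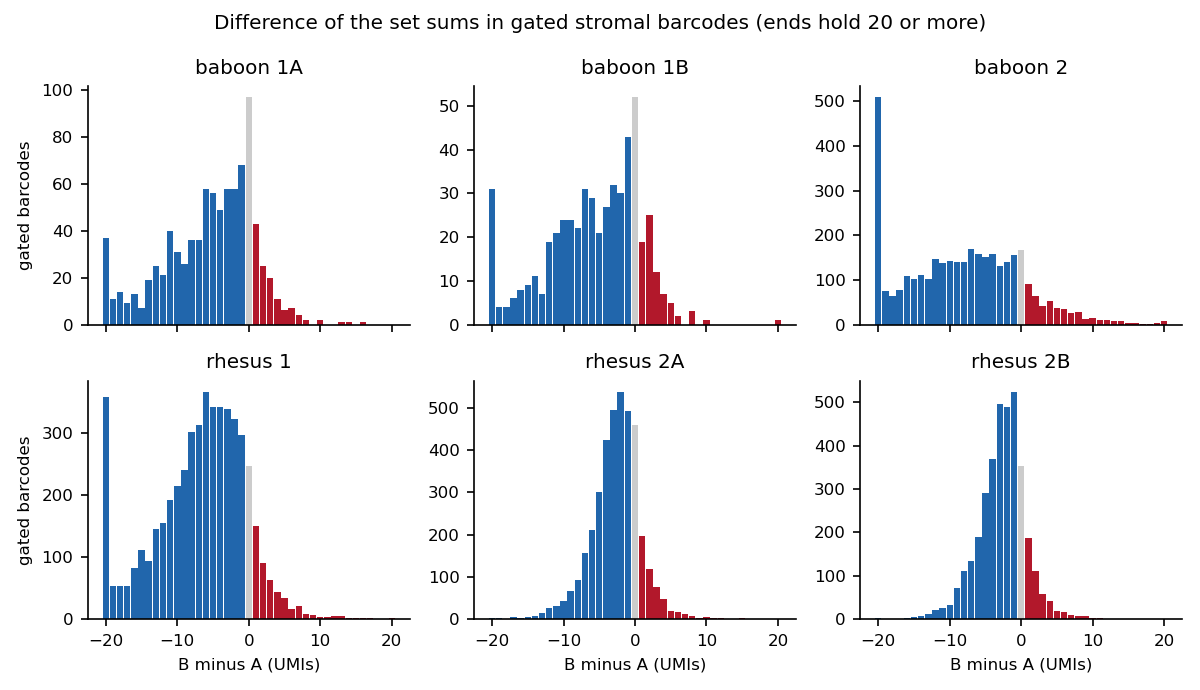
Number of gated stromal barcodes (vertical axis) by the difference B minus A in UMIs (horizontal axis) in each library, with members in red, ties in grey and barcodes with A above B in blue. Counts run through 0 without a gap, and members with a difference of 1 number 43, 19 and 90 in baboon 1A, 1B and 2 and 151, 196 and 187 in rhesus 1, 2A and 2B.

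The 2 species reached the rule through different genes. In the baboon, 82.9%, 85.3% and 92.1% of members in 1A, 1B and 2 held UMIs of at least 2 set B genes. In rhesus 1, 2A and 2B the shares were 58.3%, 46.9% and 53.7%, and among the members with a single set B gene that gene was DLK1 in 176 of 192, 245 of 269 and 196 of 213. COL15A1 and PDGFRA were not analysed here in rhesus monkeys, where set B therefore held 5 genes and the gate 5. No test was made between species, whose genes come from different annotations.

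The values of the genes that chose the members follow as a description, in counts per 1000000 UMIs of the summed barcodes of a library (CPM). DLK1 (baboon chr7:5818972-5827218 in Panubis1.0, rhesus chr7:162943302-162951728 in Mmul_10) stood at 643, 519 and 521 CPM in members of baboon 1A, 1B and 2, at 168, 165 and 127 in stroma with A above B, and at 26.2, 22.3 and 45.5 in all other barcodes. In rhesus 1, 2A and 2B it stood at 2219, 1891 and 1987 in members, 356, 498 and 535 in stroma with A above B and 259, 338 and 346 in all other barcodes. After every barcode was thinned to 1000 UMIs, a DLK1 UMI was found in 43.9% of baboon members and in 82.3% of rhesus members, against 66.1% and 94.8% without thinning. Members of the 3 libraries of a species were close in this gene, and DLK1 was also found outside the members, with a UMI in 24.1%, 35.7% and 37.6% of thinned rhesus stroma with A above B.

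A UMI of STC1 (baboon chr8:21988046-22001646, rhesus chr8:24104090-24115266) was found in a minority of members. Its level in members was 170.0, 47.2 and 140.3 CPM in the baboon libraries and 238, 219 and 213 in the rhesus libraries. The share with a UMI of it was 13.5% of thinned baboon members and 16.7% of thinned rhesus members, and 25.1% and 23.5% without thinning. A barcode without such a UMI does not show that the cell lacked the RNA. Baboon 1B was the lowest of the 6 libraries. In rhesus monkeys STC1 was more abundant in all other barcodes, at 141, 80.0 and 79.7 CPM, than in stroma with A above B, at 46.4, 28.5 and 30.1, so it was counted in other barcodes too. After thinning, DLK1 and STC1 were found together in 10, 2 and 32 members of baboon 1A, 1B and 2, and in 54, 52 and 63 members of rhesus 1, 2A and 2B. If the 2 genes were independent among thinned members, 7.07, 1.8 and 30.1 baboon members and 65.45, 64.9 and 66.6 rhesus members would hold both. The rule chose members on the sum of set B, so these numbers cannot test whether the 2 genes go together. UMIs of both genes were found in few single members at this depth.

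The remaining set B genes encode matrix proteins and a kinase. COL15A1, a basement membrane collagen, was at 623, 703 and 649 CPM in baboon members and at 242, 260.2 and 231 in stroma with A above B. HAPLN1, which links hyaluronan to proteoglycans, was at 197, 268 and 115 in baboon members and 149, 131 and 98.2 in rhesus members. LAMB1, a laminin chain, was at 103, 136 and 151 in baboon members and 127, 146 and 218 in rhesus members. NRK, a kinase of developing tissues, was at 563, 509 and 695 in baboon members but at 75.5, 27.8 and 29.0 in rhesus members. Among set A genes, IGFBP3 was at 199.9, 173 and 145 CPM in baboon members against 1839, 1895 and 1111 in stroma with A above B, and at 119, 25.9 and 33.5 in rhesus members against 1137, 132 and 141. Among gate genes, DCN, a proteoglycan of fibroblasts, had a UMI in 81.3%, 81.3% and 80.0% of thinned baboon members and 92.8%, 91.3% and 93.3% of thinned rhesus members. The level of DCN was 2189, 2450 and 1757 CPM in baboon members against 3788, 3994 and 2329 in stroma with A above B. In rhesus 1 and 2A it was 4101 and 2740 against 6357 and 2720. All gate genes together came to 4212, 4710 and 3374 against 6783, 7101 and 4372 in the baboon, and to 6129 and 6097 against 8552 and 5321 in rhesus 1 and 2A. NR2F2, a transcription factor of stromal cells, differed little in 2 libraries, at 423 and 401 CPM in members and that stroma of baboon 2 and 373 and 399.8 in rhesus 2B.

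**Figure D2:**
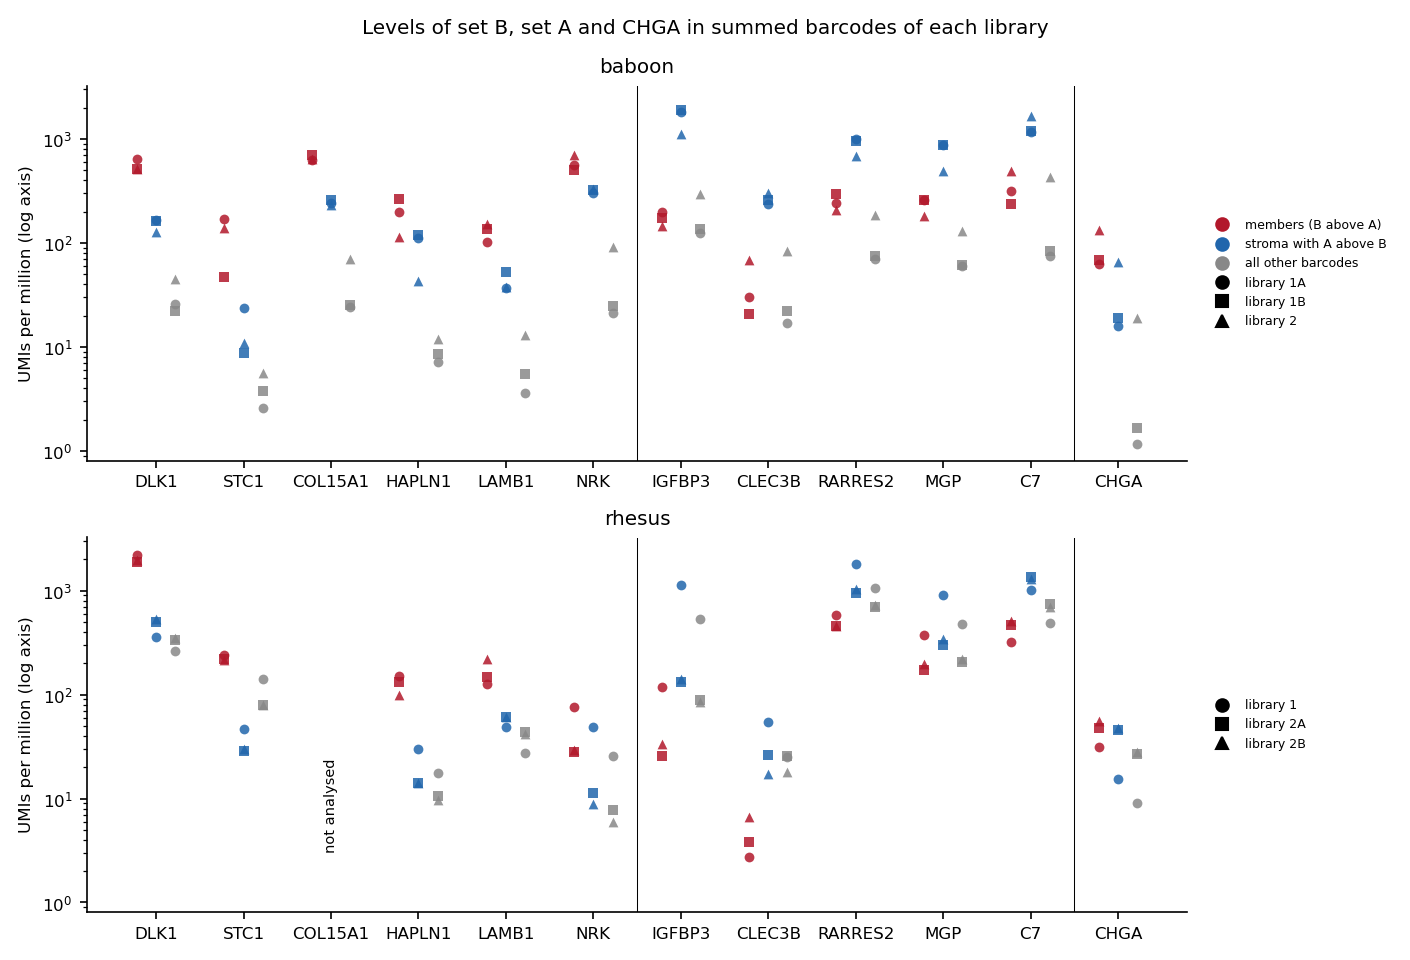
CPM on a log axis (vertical) of set B, set A and CHGA (horizontal) in summed barcodes of each library, with a marker shape per library and a colour per class. Set B is highest and set A lower in members than in stroma with A above B because the rule chose them so, and NRK is at 563, 509 and 695 in baboon members but at 75.5, 27.8 and 29.0 in rhesus members.

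The label was checked against markers. Of 10 stromal markers outside the rule in the baboon and 9 in rhesus monkeys, each had UMIs in the members of every library except LUM, a proteoglycan of fibroblasts, which was at 0, 0 and 0.957 CPM in baboon members and at 26.4, 21.1 and 31.3 in rhesus members. Sertoli cell RNA was also in the members. AMH, a Sertoli hormone, was at 1690, 2025 and 3823 CPM in baboon members and 913, 276 and 219 in rhesus members, as against 1778, 1893, 3815, 1562, 527 and 534 in stroma with A above B and 6050, 6074, 6584, 3200, 2350 and 2521 in all other barcodes. All 12 Sertoli markers together came to 2499, 2895 and 4852 CPM in baboon members and the 11 found in rhesus monkeys to 2027, 992 and 904, with SHBG and CITED1 at 0 in members of baboon 1A and 1B, CITED1 in baboon 2 and WT1 in rhesus 1. Endothelial markers came to 283 CPM in members of baboon 1A, with EGFL7 the most abundant at 99.97, against 15.7 and 23.5 in 1B and 2 and 80.1, 107 and 60.3 in the rhesus libraries. At least 3 markers of another cell type were held by 36, 22, 115, 149, 80 and 58 members of baboon 1A, 1B, 2 and rhesus 1, 2A, 2B, and by 7, 3, 14, 35, 22 and 19 when Sertoli markers were not counted. Macrophage markers reached 231 CPM in members of rhesus 2A, of which LYZ made 119, against 47.3 and 17.9 in rhesus 1 and 2B. The part of such RNA in the results below was not tested, other than by the fits that left those barcodes out.

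Libraries shared about as many barcode sequences as random draws would give (57 against 62.1 for baboon 1A and 1B, and 67 against 50.8 for rhesus 2A and 2B), and 1 barcode was a member in 2 libraries.

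Members were compared with the most similar cells, the gated stroma with A above B, and then with all other barcodes, which include that stroma. Counts were summed per animal and class, so each comparison set 2 sums against 2. Without regard to which sums came from the same animal, edgeR's quasi-likelihood test at an adjusted p under 0.05 called no gene against stroma with A above B in either species (0% of 11432 genes in the baboon and of 11218 in rhesus monkeys), with 240 and 312 genes at an unadjusted p under 0.05. DESeq2 called 23 (0.258%) and 29 (0.232%) genes there. Members and comparison cells of an animal came from the same tissue and deviated together, and with the animal as a block the same test called 109 genes higher and 175 lower in baboon members (0.953% and 1.53% of the genes tested, 2.48% together) and 311 higher and 188 lower in rhesus members (2.77% and 1.68%, 4.45% together). Genes are said below to be higher or lower where this blocked fit called them. That fit leaves 1 residual degree of freedom, so the spread it uses is mostly borrowed from other genes. Of the genes outside the rule that were singled out by name from this fit, 46 in the baboon and 48 in rhesus monkeys, 24 and 38 were also called with split counts (members chosen on one random part of the UMIs and measured on the other) and 41 and 20 without barcodes holding 3 markers of another type. The rule's genes are left out of the gene lists and of the genes shared by both species below. Counts of called genes, against the other stroma and against all other barcodes, do not leave the rule's genes out. Genes that vary with them from cell to cell had to differ once the members were chosen, and the sets themselves came from earlier clusters of these libraries, so the calls describe the members and do not test whether they are a type.

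Both species, with separate animals, had genes called in common. Of 8256 genes tested in both, 60 were called higher in baboon members (0.727%) and 178 in rhesus members (2.16%), and 35 were higher in both, which is 58.3% of the baboon list and 19.7% of the rhesus list. In the other direction 128 (1.55%) and 138 (1.67%) were lower, and 42 were lower in both, 32.8% and 30.4% of the lists. EDIL3 was called in both with opposite signs. Its baboon call was lost with split counts, where the log2 fold change was -0.54 and not -1.02. Split counts applied the gate and the INSL3 and RGS5 limits to one random part of the UMIs and measured the other part. Of barcodes so chosen, 63 of 96, 42 of 59 and 322 of 435 in baboon 1A, 1B and 2 were members by the rule. In rhesus 1, 2A and 2B, 261 of 388, 286 of 465 and 279 of 434 were. Both the barcodes and the depth therefore differed from the blocked fit. With split counts 6 of the 35 and 12 of the 42 were again called in both. Without barcodes holding 3 markers of another type, 11 of each were. That alternative took the rhesus count of 499 called genes to 74 and the baboon count of 284 to 567.

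Of the 35 higher genes, WFDC1, BGN, LAMC3, THBD and SPARCL1 were called in both species under both of those alternatives, and they encode secreted or cell surface proteins. WFDC1, a secreted protease inhibitor domain protein, was at 160.0, 152 and 71.8 CPM in baboon members against 32.5, 26.4 and 4.73 in stroma with A above B. In rhesus monkeys it was at 334, 300.2 and 389.5 against 109.8, 80.4 and 82.9. No library's members fell within the range of the comparison stroma of its species, and the log2 fold change was 3.12 ± 0.25 (SE) in the baboon and 1.79 ± 0.14 in rhesus monkeys. BGN, a small proteoglycan, was at 153, 115 and 69.4 against 67.4, 57.8 and 27.7 in the baboon and at 421, 200.5 and 229.9 against 171, 89.6 and 93.9 in rhesus monkeys. Members were above the other stroma in each of the 6 libraries, with log2 fold changes of 1.18 ± 0.17 and 1.22 ± 0.12. LAMC3, a laminin chain, was at 183, 163 and 221 against 82.4, 89.2 and 81.5 in the baboon and at 356, 241 and 225 against 179, 65.7 and 64.8 in rhesus monkeys, and its log2 fold changes were 1.24 ± 0.16 and 1.36 ± 0.17. THBD, the thrombin receptor thrombomodulin, was low, at 23.3, 26.2 and 17.2 against 5.55, 11.3 and 2.27 in the baboon and at 41.0, 22.1 and 39.1 against 15.4, 9.94 and 9.23 in rhesus monkeys. SPARCL1, a matrix-associated glycoprotein, was at 643, 624 and 708 against 350.4, 388 and 400.4 in the baboon and at 535, 652 and 759 against 277, 579 and 570.0 in rhesus monkeys, where rhesus 2A had the smallest difference and the ranges of the classes overlapped.

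The 250 bases before the annotated start of LAMC3 and BGN are shown as 2 examples of the genes higher in members of both species in those fits, and stand for no others. They were read from Mmul_10 (RefSeq annotation), the build of the rhesus counts, at chr15:9468120-9468369 on the minus strand for LAMC3 and chrX:149473870-149474119 on the plus strand for BGN. Capitals mark a match on either strand to CCAAT or to the motif known as the GC box, GGGCGG, and neighbouring matches may overlap.
LAMC3: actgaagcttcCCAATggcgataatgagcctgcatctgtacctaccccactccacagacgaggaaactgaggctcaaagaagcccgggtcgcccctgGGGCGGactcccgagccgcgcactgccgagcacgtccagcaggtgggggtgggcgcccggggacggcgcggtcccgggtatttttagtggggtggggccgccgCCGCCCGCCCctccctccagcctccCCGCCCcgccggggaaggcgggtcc
BGN: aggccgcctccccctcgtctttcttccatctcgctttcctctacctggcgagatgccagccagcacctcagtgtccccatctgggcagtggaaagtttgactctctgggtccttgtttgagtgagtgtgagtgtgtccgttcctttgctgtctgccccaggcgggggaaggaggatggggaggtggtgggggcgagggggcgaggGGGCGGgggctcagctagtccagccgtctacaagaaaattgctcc
LAMC3 held 1 match to CCAAT and 4 to GGGCGG, and BGN held 1 to GGGCGG. Of 20782 windows of this length before protein-coding genes, 31.0% held CCAAT and 43.7% GGGCGG, so such matches are common.

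Further genes were called higher in both species, but each of the 8 that follow lost a call under an alternative. With split counts MATN2, TGFBI, NGFR, FOXS1, PENK and PLAC1 were not called in the baboon, nor NEFL, PENK and PLAC1 in rhesus monkeys. Without barcodes holding 3 markers of another type ALDH1A3, NEFL, PENK and PLAC1 were not called in rhesus monkeys. Baboon log2 fold changes with split counts were 1.75, 1.69 and 0.89 for TGFBI, FOXS1 and PLAC1, against 1.55, 1.27 and 0.73. Those of MATN2, NGFR and PENK were 1.08, 1.12 and 0.77, against 1.33, 1.22 and 0.77. In rhesus monkeys those of NEFL, PENK and PLAC1 were smaller with split counts but positive. With barcodes of other types left out, rhesus ALDH1A3, NEFL and PLAC1 had 0.98, 1.34 and 0.57, against 0.87, 1.31 and 0.50. Rhesus PENK then had 1.04 against 1.13. MATN2, a matrix adaptor protein, was at 93.3, 142 and 92.9 CPM in baboon members against 62.6, 64.1 and 28.1, and at 159, 153 and 164 in rhesus members against 53.5, 53.2 and 65.0. TGFBI, an extracellular protein induced by TGF-beta, was at 80.0, 52.5 and 24.4 against 23.0, 22.6 and 7.89 in the baboon and at 29.1, 130.5 and 114 against 12.2, 28.3 and 34.9 in rhesus monkeys. Its level was low in members of rhesus 1 and higher in both libraries of the other animal. NGFR, a neurotrophin receptor of mesenchymal and nerve cells, had a log2 fold change of 1.80 ± 0.17 in rhesus monkeys, where its levels were 134, 95 and 100.5 against 28.9, 33.1 and 34.7, and of 1.22 ± 0.29 in the baboon. ALDH1A3, which makes retinoic acid, was at 66.6, 47.2 and 114 in baboon members against 33.3, 25.1 and 44.0, and at 88.3, 35.5 and 31.3 in rhesus members against 51.5, 14.2 and 16.9. FOXS1, a transcription factor, was at 108, 49.9 and 45.8 in rhesus members against 47.3, 14.4 and 16.5, while in the baboon members of 1B were at 15.7 against 17.6 and the other libraries were higher. NEFL, a neurofilament protein, was at 89.97, 99.7 and 61.7 in baboon members against 21.4, 35.2 and 19.8 and far lower in rhesus monkeys, at 16.4, 14.4 and 15.6 against 8.82, 3.31 and 5.42. PENK, the enkephalin precursor, was at 107, 94.4 and 149.8 against 50.7, 39.0 and 93.6 in the baboon, and in rhesus monkeys it was found mainly in animal 1, at 50.1 against 22.9. PLAC1 was higher in both species by log2 fold changes of 0.73 ± 0.15 and 0.50 ± 0.13.

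The genes lower in members of both species included growth factor, surface and calcium-binding genes. RSPO3, a secreted enhancer of WNT signalling, was at 23.3, 31.5 and 35.9 CPM in baboon members against 139, 134 and 119 in stroma with A above B. In rhesus monkeys it was at 16.4, 52.8 and 54.7 against 133, 121 and 121. Members were below that stroma in all 6 libraries without overlap, and the log2 fold change was -1.94 ± 0.19 in the baboon and -1.80 ± 0.25 in rhesus monkeys. INHBA, an activin and inhibin subunit, was at 83.3, 83.9 and 94.8 against 308, 313 and 240.3 in the baboon and at 38.2, 26.9 and 19 against 122, 46.7 and 43.2 in rhesus monkeys. CAVIN2, a caveolae protein, was at 60.0, 78.7 and 37.8 against 152, 176 and 172 in the baboon and at 51.0, 66.2 and 74.8 against 153, 133 and 143 in rhesus monkeys. S100A6, a calcium-binding protein of fibroblasts, was at 66.6, 62.9 and 34.0 in baboon members against 603, 682 and 242, a log2 fold change of -3.07 ± 0.18. In rhesus monkeys the change was smaller, -0.99 ± 0.15, from 1450, 428 and 443 to 573, 297 and 304 in members, and the ranges of the classes overlapped. These 4 genes were called in both species under the split of UMIs and without barcodes of other types.

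**Figure D3:**
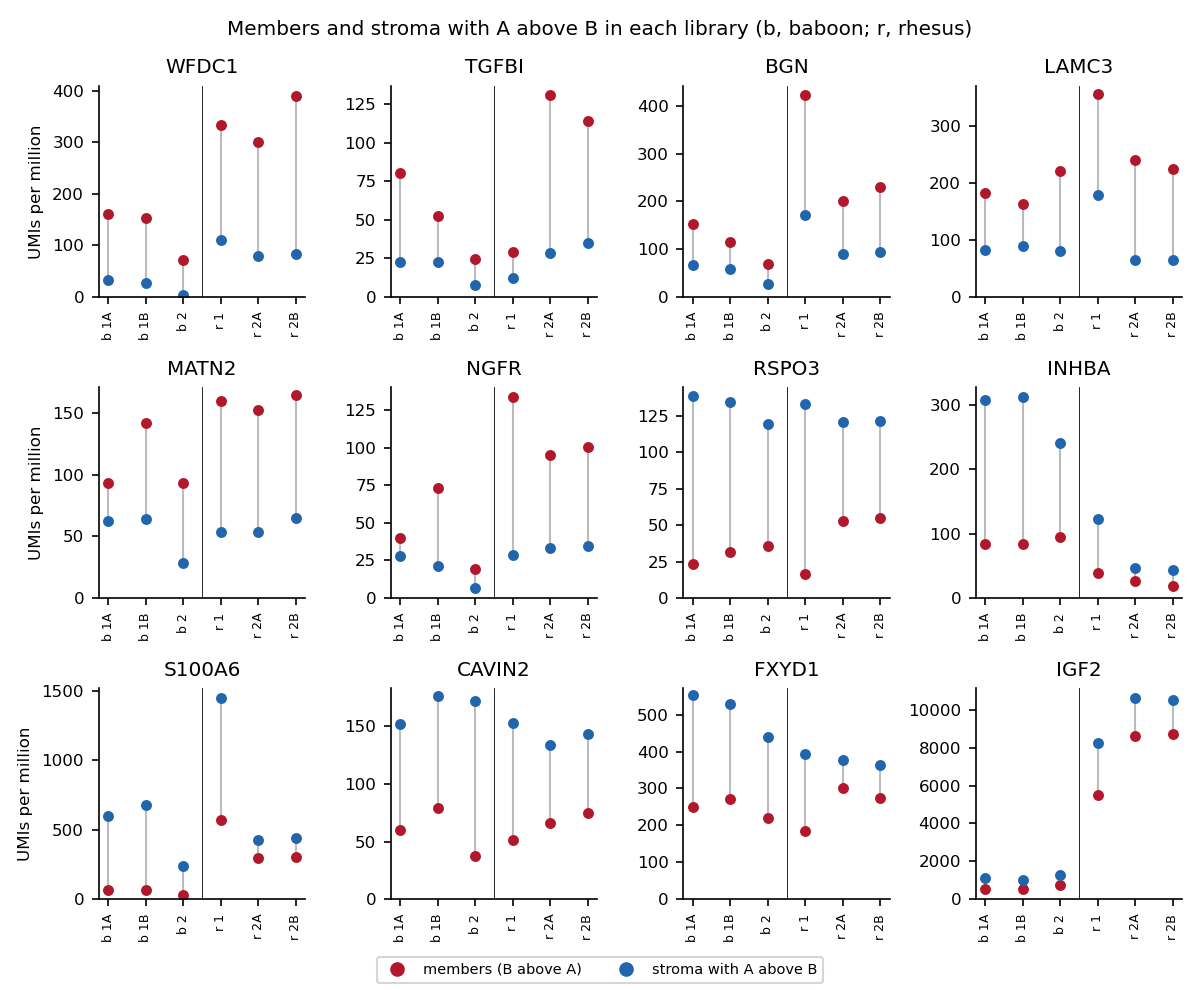
CPM (vertical axes, from 0) of 12 genes in members (red) and in stroma with A above B (blue) of each library, joined by a line. WFDC1, TGFBI, BGN, LAMC3, MATN2 and NGFR lie higher in members and RSPO3, INHBA, S100A6, CAVIN2, FXYD1 and IGF2 lower in all 6 libraries, and S100A6 in members ranges from 34.0 in baboon 2 to 573 in rhesus 1.

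The neurotrophin receptor NTRK2 was at 80.0, 73.4 and 84.7 CPM in baboon members against 343, 348 and 229, and at 90.1, 154 and 156 in rhesus members against 236, 217 and 203. NR0B1, a nuclear receptor that represses steroid genes, had log2 fold changes of -1.17 ± 0.20 and -1.01 ± 0.20. Its levels were 20.0, 21 and 43.6 in baboon members and 19.1, 51.8 and 42.4 in rhesus members, against 66.6, 71.6 and 85.8 and 54.4, 76.4 and 79.9. IGF2, an imprinted growth factor, was at 517, 529.8 and 728 in baboon members against 1114, 992 and 1292 and at 5519, 8613 and 8730 in rhesus members against 8258, 10629 and 10538. LVRN, a membrane aminopeptidase, was at 9.997, 10.49 and 11 in baboon members against 47.6, 72.9 and 89.0. In rhesus monkeys its difference rested on animal 1, with 8.19 against 71.8, while libraries 2A and 2B were at 10.6 and 6.70 against 9.02 and 7.03. ANXA1, a phospholipid-binding protein, was listed at 0 in members of baboon 1A and 1B, at 1.91 in baboon 2, and at 3.64, 1.92 and 5.58 in rhesus members. With split counts NR0B1, IGF2 and ANXA1 were not called in the baboon, and without barcodes of other types NTRK2, LVRN and ANXA1 were not called in rhesus monkeys. The baboon log2 fold changes of NR0B1, IGF2 and ANXA1 with split counts were -1.10, -0.82 and -2.16, against -1.17, -0.98 and -3.36.

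**Figure D4:**
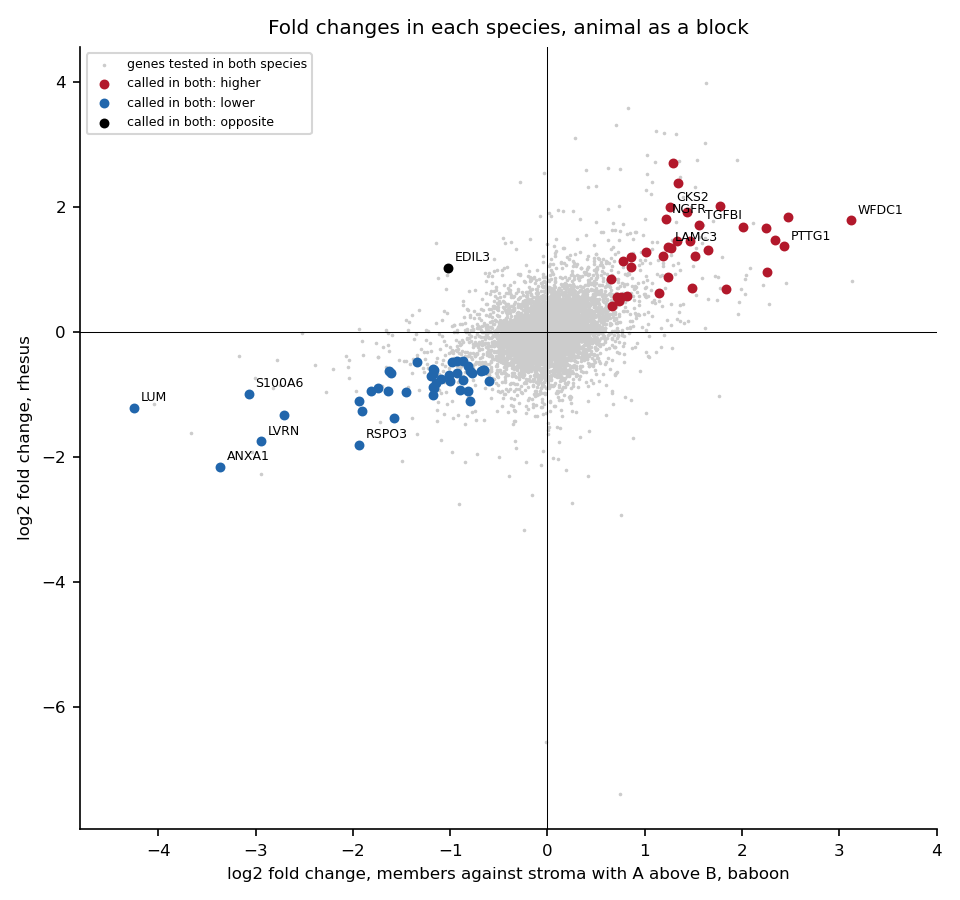
Log2 fold change of members against stroma with A above B in the baboon (horizontal axis) and the rhesus monkey (vertical axis), from fits with the animal as a block, for 8256 genes tested in both species outside the rule. The 35 genes called higher in both are red, the 42 lower in both are blue, and EDIL3 is black.

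By gene group, part of a list of adventitial fibroblast genes, named for the loose connective tissue cells around vessels, was lower in members. Of 10 tested in the baboon 7 were lower and none higher (median log2 fold change -1.08, against 0.01 for all genes), and of 16 tested in rhesus monkeys 7 were lower, none was higher and 2 had positive fold changes (median -0.64, against -0.01). SFRP1, LHFPL6, PMP22 and FXYD1 were lower in both species. Of these FXYD1 alone was again called in both with split counts, and none was without barcodes of other types. With split counts SFRP1 and PMP22 had baboon log2 fold changes of -1.06 and -0.68, against -0.93 and -0.87. With split counts 4 of the list were called lower in the baboon and 7 in rhesus monkeys, and without barcodes holding 3 markers of another type 8 and 1 were. FXYD1, a regulator of the sodium pump, was at 249.9, 273 and 219 CPM in baboon members against 553, 529 and 441 and at 184, 300.2 and 273 in rhesus members against 392, 377 and 363. LHFPL6 was at 149.96, 189 and 77.1 against 390.0, 349 and 279.6 in the baboon. CFD, complement factor D, was lower in rhesus monkeys, at 19.1, 6.71 and 4.46 against 279.6, 12.1 and 17.1, mostly in animal 1. The list is close in kind to set A, whose genes are of the same fibroblasts, so its direction was in part fixed by the choice of members.

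Of collagens and their processing genes, none of 12 tested in the baboon was higher and 4 were lower (COL6A1, COL6A2, COL14A1 and PCOLCE), with a list median log2 fold change of -0.45. In rhesus monkeys none of 13 was higher and PCOLCE was lower, with a list median of -0.12. The summed list was at 1673, 1846 and 1582 CPM in baboon members against 2657, 2734 and 2044, and at 1794, 2104 and 2386 in rhesus members against 2332, 1768 and 1931. COL14A1 was at 23.3, 0 and 16.3 CPM in baboon members against 91.2, 75.4 and 118. PCOLCE, which speeds procollagen cleavage, was at 86.6, 62.9 and 41.6 in baboon members against 210.1, 181 and 81.6, and in rhesus monkeys it was lower in animal 1 (93.8 against 268) but at 43.2 and 48.0 against 44.9 and 46.2 in 2A and 2B. Of a basement membrane list outside the rule, which does not hold LAMC3, none of 15 tested in the baboon passed the test. Without barcodes holding 3 markers of another type, 3 of that list were higher and 1 lower in the baboon. In rhesus monkeys 2 of 13 of that list were higher, COL4A1 at 16.4, 22.1 and 15.6 against 7.14, 8.65 and 9.23 and COL4A2 at 112, 346 and 356 against 78.7, 212 and 212. Among 8 genes of peritubular myoid cells tested in rhesus monkeys 5 had negative fold changes (list median -0.19) and ACTA2 and MYH11 were higher in members, with ACTA2 at 228, 156 and 189 against 86.5, 44.9 and 71.5. In the baboon none of 5 was higher and SMOC2 was lower, and ACTA2 was at 6.66, 10.49 and 1.91 CPM in members. With split counts 2 collagen genes and no myoid gene were called in the baboon, and COL4A1 was not called in rhesus monkeys. Without barcodes of other types PCOLCE, COL4A1 and MYH11 were not called in rhesus monkeys.

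Genes of the Leydig lineage were divided. STAR, which brings cholesterol into mitochondria for steroid synthesis, was higher in members of both species, at 43.3, 0 and 34.0 CPM against 7.93, 11.3 and 11.7 in the baboon and at 105, 95 and 83.7 against 61.4, 51.3 and 58.2 in rhesus monkeys. Members of baboon 1B held none. The call of STAR was lost with split counts in both species and, in rhesus monkeys, without barcodes holding 3 markers of another type. Its log2 fold change, 1.49 in the baboon and 0.70 in rhesus monkeys, was 1.14 and 0.53 with split counts and 2.02 and 0.50 without those barcodes. A 3-beta-hydroxysteroid dehydrogenase, which makes progesterone-type steroids, was also higher, HSD3B2 in the baboon at 40.0, 68.2 and 123 against 26.2, 35.2 and 50.1, and HSD3B1 in rhesus monkeys at 76.5, 12.5 and 13.4 against 26.1, 7.91 and 5.02. In the whole list of this lineage and of steroid synthesis, 2 of 19 tested in the baboon were higher and 5 lower (among them NR0B1, LHX9, NR2F1 and THY1), and 2 of 18 in rhesus monkeys were higher and 1 lower (NR0B1). With split counts none of the list was called lower in the baboon, while without barcodes holding 3 markers of another type 5 were. INSL3, whose UMIs per barcode the rule limited, was at 9.997, 0 and 24.9 CPM in baboon members against 3.96, 2.51 and 1.77 and at 215, 48 and 68.1 in rhesus members against 124, 43.2 and 45.6, and its part in the levels of STAR and the dehydrogenases was not tested.

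Hedgehog signals from Sertoli cells act on the interstitium through the receptor PTCH1, which is also a target of the pathway. In the baboon PTCH1 was at 66.6, 57.7 and 77.5 CPM in members against 23.0, 27.6 and 20.2 in stroma with A above B. Members were above that stroma in every library, with a log2 fold change of 1.72 ± 0.20, and PTCH1 was among the 2 of 11 hedgehog genes called higher. In rhesus monkeys none of 8 tested was called, with a list median of 0.36 against 0.35 in the baboon.

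CHGA, a granin of secretory granules that was listed as a marker of these cells but was not part of the rule, was at 63.3, 68.2 and 133 CPM in baboon members against 15.9, 18.9 and 65.8, with a log2 fold change of 1.17 ± 0.18. In rhesus monkeys it was at 30.9, 48.0 and 55.8 against 15.3, 45.8 and 47.8, and it was not called there. Libraries 2A and 2B differed little. CHGB was called higher in rhesus monkeys at 12.7, 15.3 and 1.12 against 2.90, 1.10 and 0.602, with 2B at a single UMI. No granin or prohormone processing gene was called there with split counts or without barcodes holding 3 markers of another type.

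Some genes of mitosis were called higher in members, with UMIs in few barcodes. In the baboon 7 of 11 tested were higher, among them TOP2A at 66.6, 0 and 26.8 CPM against 3.17, 1.26 and 8.08 and MKI67 at 40.0, 0 and 12.0 against 0.793, 1.26 and 1.87. In rhesus monkeys 3 of 14 were (TOP2A, CCNB2 and CENPF). None of the list was lower. Without barcodes holding 3 markers of another type no gene of the list was called in either species, and with split counts 0 were called in the baboon and 2 in rhesus monkeys. Baboon TOP2A and MKI67 had no fitted value in those 2 fits, and the log2 fold change of TOP2A in rhesus monkeys, 0.95, was 1.54 with split counts and 0.54 without those barcodes. At least 3 genes of the list were held by 4, 3 and 10 baboon members and by 10, 14 and 10 rhesus members. CKS2, PTTG1 and KPNA2, which act in cell division or nuclear import, were called higher in both species, CKS2 at 277, 278 and 59.8 against 50.7, 66.6 and 41.4 in the baboon, but a UMI of CKS2 was found in only 1.63%, 6.67% and 1.32% of thinned baboon members. RBM46, a germ cell RNA-binding protein, was called higher with them, at 30.0, 15.7 and 7.66 against 4.76, 2.51 and 2.37 in the baboon and 13.7, 4.80 and 7.81 against 4.69, 1.47 and 1.61 in rhesus monkeys. Markers of germ cells as a whole stood at 290, 199 and 101 CPM in baboon members and 147, 129 and 60.3 in rhesus members, against 168, 206, 120, 65.5, 67.2 and 65.8 in stroma with A above B, with ID4 the most abundant in 5 libraries. At least 3 of them were held by 4, 3, 6, 1, 3 and 2 members. When barcodes with 3 markers of another type were left out, CKS2 kept a log2 fold change of 1.42 in the baboon and had 0.69 in rhesus monkeys, where it was no longer called. KPNA2 and PTTG1 were not called there either, with 0.85 and 0.44, and had no fitted value in the baboon. With split counts CKS2, KPNA2 and PTTG1 were not called in the baboon, nor PTTG1 in rhesus monkeys, and RBM46 had no fitted value in either fit. The baboon log2 fold changes of CKS2, KPNA2 and PTTG1 with split counts were 0.96, 1.40 and 1.64, against 1.25, 1.44 and 2.43. Rhesus PTTG1 had 0.77 against 1.37. CKS2 turned to -0.14 in the baboon among members with at least 2 set B genes.

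Calls in the other groups within the stroma were as follows. In the Notch list, to whose ligands DLK1 is related, none of 8 was called in the baboon and HES1 and HEY1 of 9 in rhesus monkeys, higher. Of the BMP and TGF-beta family INHBA was lower in both species, and TGFBR2 and TGFBR3 were lower in rhesus monkeys. TGFBR2 was at 20.0, 25.9 and 26.8 against 20.8, 95.5 and 80.7, a difference seen in libraries 2A and 2B, and its log2 fold change of -1.25 was -0.18 without barcodes of other types. Of WNT genes RSPO3 and SFRP1 were lower in both, but SFRP1 was not called in both with split counts or without barcodes of other types. Immediate-early genes, which can be induced by dissociation, had no call among 18 in the baboon and 3 lower of 15 in rhesus monkeys. Without barcodes of other types 2 of them were higher and 5 lower in the baboon. Hypoxia and glycolysis genes had 1 call in each, ADM lower in the baboon and ANKRD37 higher in rhesus monkeys. Of insulin-like growth factor genes IGF1, IGF2 and IGFBP6 of 11 were lower in the baboon, and of 9 in rhesus monkeys IGFBP4 and IGFBP7 were higher and IGF2 and IGFBP5 lower. Of imprinted genes IGF2, CDKN1C, MEST and DIO3 of 12 were lower in the baboon and IGF2 of 9 in rhesus monkeys. Of hyaluronan and proteoglycan genes BGN was higher in both species, LUM and PRELP were lower in both and OGN was lower in the baboon, of 9 and 11 tested. Of PDGF, FGF, VEGF and KIT ligands and receptors PDGFRL, KITLG and ANGPT1 of 12 were lower in the baboon, and of 11 in rhesus monkeys PDGFRB was higher and FGF7 lower. Of granins and prohormone processing genes CHGA was higher and CPE lower of 5 in the baboon, and CHGB and PCSK1N were higher of 6 in rhesus monkeys. Many of these calls were lost under the alternatives, and some lists gained calls. Without barcodes holding 3 markers of another type 2 Notch genes were higher in the baboon. Of insulin-like growth factor genes 3 were then higher and 3 lower there, and of the BMP and TGF-beta family 2 higher and 1 lower. With split counts the hypoxia list and the list of PDGF, FGF, VEGF and KIT genes had no call in the baboon and the insulin-like growth factor and imprinted lists had 1 each, and in rhesus monkeys the Notch, hypoxia and granin lists had none. Without barcodes holding 3 markers of another type the Notch, hypoxia, granin and PDGF lists had no call in rhesus monkeys, no proteoglycan gene was lower there, and 1 gene each of the BMP, WNT and immediate-early lists was lower.

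Markers of other cell types were also compared within the stroma. Sertoli markers had no call among 10 in the baboon, and SOX9, AMH, INHA and CITED1 of 11 were lower in rhesus monkeys. Endothelial markers had no call among 6 in the baboon, and VWF, ESAM and CLDN5 of 6 were lower in rhesus monkeys, where 1.68% of all genes tested were lower. Without barcodes holding 3 markers of another type no Sertoli or endothelial marker was called in rhesus monkeys, and with split counts 1 and 3 were lower. The first of these fits left barcodes out by these same markers, so it cannot test them. Of germ cell markers RHOXF1 of 2 was higher in rhesus monkeys and none of 6 was called in the baboon, and of lymphoid markers CCL5 of 5 was higher in rhesus monkeys. No germ cell or lymphoid marker was called higher in either alternative. Macrophage, pericyte, glial and erythroid markers had no call in either species, with 1, 4, 1 and 0 tested in the baboon and 8, 3, 4 and 1 in rhesus monkeys. Of Leydig markers the genes called were STAR and HSD3B2 of 5 in the baboon and STAR and HSD3B1 of 5 in rhesus monkeys. Of other stromal markers LUM, COL6A1, COL6A2 and IGF1 of 10 were lower in the baboon, and LUM and FBLN1 of 9 in rhesus monkeys. None of these stromal markers was called in the baboon with split counts or in rhesus monkeys without barcodes of other types.

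Each species also had genes at the ends of its own list. TKTL1, HMGA1 and CALB2 had the largest increases in rhesus monkeys by the rule for named genes. TKTL1, a transketolase-like protein, was at 111, 48.9 and 39.1 CPM in members against 10.3, 4.23 and 2.81, in 3.04%, 0.394% and 0.435% of thinned members. CALB2, a calcium-binding protein, was at 117, 31.7 and 55.8 against 24.9, 6.44 and 8.63, and ALCAM, an adhesion protein, was lower at 15.5, 55.6 and 52.5 against 71.3, 97.7 and 107. Of these 4 genes CALB2 alone was called without barcodes holding 3 markers of another type. In the baboon S100A4 and KCNJ3 were among the genes that were lowest in members relative to other stroma, with S100A4 at 13.3, 5.25 and 5.27 against 127, 134 and 28.6.

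Against all other barcodes, the first fit called 2 genes in the baboon (0.0125% of 16017), of which 1 was the rule gene STC1 and the other HBB, and none of 12907 (0%) in rhesus monkeys, with 1366 and 806 genes at an unadjusted p under 0.05 and 196 (1.38%) and 89 (1%) called by DESeq2. With the animal as a block, 665 genes were higher and 426 lower in baboon members (4.15% and 2.66%, 6.81% together) and 339 higher and 825 lower in rhesus members (2.63% and 6.39%, 9.02% together). These counts include genes of the rule. The baboon count of 1091 was 584 without library 1A (428 higher and 156 lower) and 713 without library 1B (478 and 235). With split counts more baboon genes were lower than higher, 613 against 475. Without barcodes holding 3 markers of another type 2016 baboon genes were lower and 1338 higher. Since the gate chose stromal RNA, the choice itself favoured stromal genes in members. Of stromal markers outside the rule 7 of 10 were higher in the baboon and 1 of 9, COL1A2, in rhesus monkeys, and 1 and 2 had negative fold changes. Of all other barcodes, 672 of 9002, 403 of 4946 and 2921 of 7091 in baboon 1A, 1B and 2 were stroma with A above B. In rhesus 1, 2A and 2B this was 4383 of 9943, 2917 of 5841 and 2785 of 5437. The comparison class was thus a different mixture in each animal. Of 10170 genes tested in both species, 146 were higher in both (29.7% of 492 in the baboon and 54.5% of 268 in rhesus monkeys) and 212 lower in both (64.4% of 329 and 31.7% of 669).

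Of the genes higher in both species, COL2A1, a fibrillar collagen of cartilage, had the largest log2 fold changes, 4.23 in the baboon and 3.03 in rhesus monkeys, judged by the smaller of the 2 values, but it was not called in both with split counts. NGFR, AQP3 (a water and glycerol channel, 2.77 and 2.32), TGFBI, SMPD3 (a sphingomyelinase, 3.34 and 2.29) and WFDC1 came next. These genes were chosen after their values were seen. WFDC1 was at 160.0, 152 and 71.8 CPM in baboon members against 5.18, 4.48 and 5.13 in all other barcodes, and at 334, 300.2 and 389.5 in rhesus members against 93.7, 59.2 and 56.8. TGFBI was at 80.0, 52.5 and 24.4 against 2.30, 2.28 and 2.67 in the baboon. PLAC1 was at 157, 184 and 118 against 7.29, 7.71 and 18, and PTCH1, called in the baboon and not in rhesus monkeys, at 66.6, 57.7 and 77.5 against 4.55, 4.56 and 7.95 in the baboon. CHGA was at 1.17, 1.65 and 19.2 in all other barcodes of the baboon and at 9.07, 27.1 and 28.2 in those of the rhesus monkey, and it was higher in members of both species, with log2 fold changes of 3.70 ± 0.29 and 1.17 ± 0.22. In rhesus monkeys CALB2, NGFR and FOXS1 were also among the largest, with NGFR at 134, 95 and 100.5 against 16.6, 21.8 and 20.1.

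Matrix genes were among those higher in members. Of 13 collagen and collagen-processing genes 8 were higher in the baboon and 3 in rhesus monkeys, and of basement membrane genes 4 of 17 and 4 of 14 were higher and 2 in each lower. NID1, which links laminin to collagen IV, was at 96.6, 110.2 and 73.2 CPM against 7.07, 8.49 and 21 in the baboon and at 192, 269.6 and 277 against 81.4, 132 and 133 in rhesus monkeys. LAMA2, a laminin chain, was at 60.0, 99.7 and 132 against 4.32, 4.32 and 23.4, and at 47.3, 74.8 and 80.4 against 20.9, 57.6 and 47.0. IGFBP4, which binds insulin-like growth factors, was at 1210, 1296 and 767 against 105, 112 and 171 in the baboon and at 100.1, 104 and 90.4 against 45.3, 42.0 and 30.1 in rhesus monkeys. Of hedgehog genes, 4 of 11 were higher in the baboon, PTCH1, GLI1 and BOC among them, and GLI2 of 9 in rhesus monkeys, where all 9 fold changes were positive. No test was made of these differences between species.

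Markers of other testis cells differed by type. Of 7 germ cell markers tested in the baboon DDX4 and ID4 were higher and none lower, and ID4 of 6 was higher in rhesus monkeys. No germ cell marker was called higher in either species with split counts or without barcodes holding 3 markers of another type, and 3 were lower in the baboon in the latter fit. The latter fit left such barcodes out of the members only, 87 of 123 remaining in baboon 1A, and not out of all other barcodes. It therefore lowered markers of other types in members by its choice, and cannot test them. Of peritubular myoid markers MYH11, SYNPO2 and SMOC2 of 8 were higher in the baboon, and in rhesus monkeys ACTA2 and MYH11 of 8 were higher and CNN1 and LMOD1 lower. With split counts 1 myoid marker was higher and 1 lower in the baboon. Of pericyte markers CSPG4 and NDUFA4L2 of 7 were higher and HIGD1B lower in the baboon, where CSPG4 was at 0 in members of 1B and no pericyte marker was called with split counts, and HIGD1B of 5 was lower in rhesus monkeys. Of Leydig markers STAR was higher (not with split counts) and HSD17B3 lower of 6 in the baboon, and CYP11A1, CYP17A1 and HSD17B3 of 6 were lower in rhesus monkeys. Sertoli markers were lower in members. Of 11 Sertoli markers tested in each species, 9 were lower in the baboon and 8 in rhesus monkeys, with SOX9, the Sertoli transcription factor, at 157, 73.4 and 131 CPM against 337, 345 and 218 and at 56.4, 40.3 and 24.6 against 161, 271 and 299. The junction genes GJA1 and DSP were lower in both species, with log2 fold changes of -1.48 and -2.21 for GJA1 and -1.48 and -2.69 for DSP, which was at 6.66, 47.2 and 38.8 against 102, 103 and 76.9 in the baboon. HBB, a globin of red cells, was at 3.33, 0 and 1.44 against 96.0, 15.7 and 83.9 in the baboon and at 9.10, 40.3 and 7.81 against 198, 2922 and 537 in rhesus monkeys, where 2A was the highest in both classes. Of endothelial markers none of 7 was called in the baboon, with all fold changes negative, and 5 of 6 were lower in rhesus monkeys. Without barcodes holding 3 markers of another type 5 were lower in the baboon and 6 in rhesus monkeys. That fit left members out partly by these same markers. With split counts none was called in the baboon and 6 were lower in rhesus monkeys. CYP17A1, a Leydig steroid enzyme, was at 1.82, 1.92 and 0 in rhesus members against 124, 2.73 and 5.54, a contrast that rests on animal 1. GPIHBP1 and CD36, genes of capillaries and lipid uptake, had log2 fold changes of -3.11 ± 0.35 and -2.88 ± 0.32 in rhesus monkeys, and their level in all other barcodes was higher in 2A and 2B than in library 1.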

How the data were processed

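The authors made the counts with Cell Ranger 3.1.0 against Panubis1.0 (baboon) or Mmul_10 (rhesus). The deposited values are raw UMI counts per gene and barcode for every barcode of the chemistry, without cell calling, and hold 16875294 to 49803025 UMIs per library. Doublets were kept. Members and gene lists were chosen with earlier results of these data known. Counts were summed per animal and class, and tested per species with edgeR 4.0.16 in R 4.3.3 (quasi-likelihood, TMM, low counts filtered, Benjamini-Hochberg, threshold 0.05) without and with the animal as a block. Deviations of sums from the same animal correlated (r from 0.41 to 0.69 over genes). DESeq2 1.42.0 was an alternative. Levels are CPM, counts per 1000000 UMIs of a library's class. Shares were also taken after thinning to 1000 UMIs, with exact Clopper-Pearson 95% intervals. A symbol listed repeatedly was read at its most abundant entry. Named genes were every rule gene, per species and comparison the 6 largest and 6 smallest fold changes among called genes with at least 50 CPM and one direction in every library, and genes of 28 lists. This rule gave HBB alone in the fit without a block and was applied to the blocked fit after values were seen. The genes shared by both species were also chosen then. In simulated data with 200 genes changed by a log2 fold change of 2, the blocked fit recovered 87.0% (baboon) and 80.5% (rhesus) against the other stroma, with 9 and 8 false calls, and 53.0% and 74.0% against all other barcodes, with 2 and 7. The fit without a block recovered 24.5% and 27.5%, and 32.5% and 35.5%, with 6 and 4, and 24 and 15, false calls. Each fit was run on its own simulated data, drawn with that fit's spread and, for the blocked fit alone, with separate means per animal. The fits therefore cannot be compared by these recoveries, and the false calls hold only if the real spread is as fitted. No mitochondrial gene is listed. Animals, 2 per species, are the replicates. A few items are not reported here.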

Additional observations from a re-analysis of the deposited data

Results flagged for a closer look

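Against stroma with A above B, 3 genes had differences of opposite sign in the 2 species in every library, some of them very small, and the difference between species was not tested. With the animal as a block EDIL3 alone of the 3 was called in both species, while ACTA2 was not called in the baboon nor DPT in rhesus monkeys. The baboon call of EDIL3 was lost with split counts, at a log2 fold change of -0.54 against -1.02. EDIL3, a matrix protein of vessels and stroma, had log2 fold changes without a block of -1.152 in the baboon and 1.017 in rhesus monkeys. It was at 16.7, 26.2 and 34.5 CPM in members of baboon 1A, 1B and 2 against 63.4, 60.3 and 59.8, and at 22.8, 26.9 and 25.7 in members of rhesus 1, 2A and 2B against 11.7, 10.1 and 13.6. ACTA2, smooth muscle actin, had log2 fold changes of -0.629 and 1.414, and its baboon levels were near those of a few UMIs, at 6.66, 10.49 and 1.91 against 8.72, 11.3 and 2.46. DPT, a matrix protein of fibroblasts, had log2 fold changes of -1.022 and 0.006569. It was at 197, 209.8 and 173 against 420.1, 421 and 298 in the baboon, while its rhesus levels of 456, 558 and 577 against 426, 552 and 577 hardly differed. No group held 4 or more animals, so no outlier was sought.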

How the results depend on the processing

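With 2 animals per species, the number of genes called rested on the fit. Without a block, baboon members against all other barcodes gave 2 calls, and 196 with DESeq2, 369 with libraries as samples, 382 with no filter on low counts, 89 with at least 3 gate genes, 1107 without barcodes with 3 markers of another type, 14 with split counts, 4 with B at least 2 above A, 4 at a minimum of 2000 UMIs, 1 with at least 2 B genes, 0 at a minimum of 500 UMIs, 0 without shared barcodes and 12 to 24 without library 1A or 1B. The animal block gave 1091, and with it 622 at 2000 UMIs, 3354 without barcodes of other types and 584 to 713 without 1A or 1B. Against stroma with A above B the baboon had 0 calls, 23 with DESeq2, 17 with libraries as samples, 68 with no filter and 284 with the animal block, then 146 at 2000 UMIs, 447 at 500 UMIs, 66 with split counts and 567 without barcodes of other types. Rhesus members against all other barcodes had 0 calls, 89 with DESeq2, 153 with libraries as samples, 207 with no filter and 1164 with the animal block, then 2001 against every other barcode whatever its UMIs. Against stroma with A above B they had 0 calls, 29 with DESeq2, 7 with libraries as samples, 18 with no filter and 499 with the animal block, then 148 with B at least 2 above A, 321 with at least 3 gate genes, 944 at 2000 UMIs, 196 with split counts and 74 without barcodes of other types. The causes were not tested. Members numbered 404 (baboon) and 514 (rhesus) at 2000 UMIs, and 893 and 753 in rhesus monkeys with B at least 2 above A or at least 2 B genes. Shares with a UMI were 66.1% and 25.1% for DLK1 and STC1 in the baboon and 94.8% and 23.5% in rhesus monkeys without thinning, against 43.9%, 13.5%, 82.3% and 16.7%. The log2 fold change of CKS2 in the baboon against stroma with A above B turned to -0.39 with at least 2 B genes (-0.14 with the block), that of LVRN in rhesus monkeys to 0.11 without library 1 (range on leaving out a library -2.47 to 0.11), and that of TKTL1 in rhesus monkeys against all other barcodes to -0.81 with at least 2 B genes (-0.12 with the block) and to -0.37 without barcodes of other types (-0.44 with the block). The fit without a block called 1 of 141 named genes and comparisons, so few calls could be lost against it. Relative to it, of 3568 values of named genes under alternatives 1902 kept direction and side of the threshold, 1606 passed it, 5 no longer did, 48 moved and 7 reversed. Of the blocked calls of named genes, split counts kept 23 of 24 (baboon) and 22 of 23 (rhesus) against all other barcodes and 24 of 46 and 38 of 48 against stroma with A above B, and leaving out barcodes of other types kept 24, 22, 41 and 20. Leaving out baboon 2 or rhesus 1 leaves 1 animal and gives fold changes with no test.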
